A study of Mus musculus with 29 samples.

Results

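The comparison set 7 prefrontal cortex libraries with high levels of olfactory bulb transcripts against 7 with low levels, out of 29 libraries of 1 study. The libraries were ranked by a score, the mean over Cdhr1, Eomes and Doc2g of log2(value + 1), with each gene centred over all 29 libraries. The 7 highest and the 7 lowest libraries were compared across 17500 other genes, and 15 libraries lay between. Because the values of Cdhr1, Eomes and Doc2g chose the libraries, those 3 genes are described without a test between the groups. Tests of the score itself set it against study condition, sex and library measures, none of which chose the libraries. Every p-value for another gene speaks of how closely that gene followed the 3 markers, and of no treatment.

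All mice were C57BL/6J and were taken at postnatal day 40, and tissue labelled prefrontal cortex was sequenced in bulk. Wild-type mice (WT) received vehicle (4 females, 4 males). Heterozygotes (HT, Tbr1+/K228E, carrying K228E on 1 Tbr1 allele) received vehicle (3 females, 3 males), fluoxetine (4 females, 4 males) or lithium (3 females, 4 males). Fluoxetine blocks serotonin reuptake, lithium is a mood stabiliser, and the T-box transcription factor TBR1 acts in cortical projection neurons. The labels give neither dose nor duration of the drugs, nor whether libraries came from separate litters, so p-values measure the spread between the libraries of each comparison.

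The olfactory bulb lies at the front of the forebrain, next to frontal cortex, and relays odour information. Mitral and tufted cells are its glutamatergic output neurons, and receive input from axons of sensory neurons of the nose in the glomeruli. Most other bulb neurons are GABAergic granule and periglomerular cells, which arise from the lateral ganglionic eminence (LGE) and the postnatal subventricular zone and arrive as migrating neuroblasts. Neocortical interneurons come instead mainly from the medial and caudal ganglionic eminences (MGE and CGE). Cdhr1 is a cadherin-related protein, Eomes a T-box transcription factor and Doc2g a protein of the double C2 family, and all 3 mark mitral and tufted cells.

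The promoters of the 3 score genes are shown because they define the ranking. Each runs from 250 bases before to 50 bases after the gene start, from RefSeq on GRCm38.p6, with the TATA box core TATAA in capitals. Cdhr1 lies at chr14:37098298-37098597 on the minus strand, Eomes at chr9:118477939-118478238 on the plus strand and Doc2g at chr19:4003135-4003434 on the plus strand.
Cdhr1: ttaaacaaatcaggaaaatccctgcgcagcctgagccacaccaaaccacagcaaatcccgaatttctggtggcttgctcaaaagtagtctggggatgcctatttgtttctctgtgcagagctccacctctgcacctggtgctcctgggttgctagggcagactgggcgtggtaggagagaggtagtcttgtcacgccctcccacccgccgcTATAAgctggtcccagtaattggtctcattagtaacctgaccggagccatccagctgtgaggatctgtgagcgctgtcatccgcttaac
Eomes: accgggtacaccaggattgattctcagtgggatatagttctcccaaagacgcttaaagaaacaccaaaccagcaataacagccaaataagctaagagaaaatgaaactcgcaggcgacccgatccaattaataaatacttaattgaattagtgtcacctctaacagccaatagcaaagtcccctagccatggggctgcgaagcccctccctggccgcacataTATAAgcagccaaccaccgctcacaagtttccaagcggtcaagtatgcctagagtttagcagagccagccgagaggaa
Doc2g: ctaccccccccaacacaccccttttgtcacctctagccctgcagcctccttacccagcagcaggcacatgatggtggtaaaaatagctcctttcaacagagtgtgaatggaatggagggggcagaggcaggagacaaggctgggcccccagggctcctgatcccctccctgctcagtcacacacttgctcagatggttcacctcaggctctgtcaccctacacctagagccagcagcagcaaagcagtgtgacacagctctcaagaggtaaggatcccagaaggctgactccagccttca
The letters TATAA stood 39 bases before the start of Cdhr1 and 28 bases before that of Eomes, and were not in the Doc2g window. On either strand they occur in 25.5% of 27025 promoters of the same length. The T-box core GGTGTGA, present in 3.96% of promoters on either strand, was searched on both strands and was in none of the 3 windows.

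Scores ran from -3.61 to 2.17. The low group held HT lithium male 3 (-3.61), HT lithium female 2 (-2.85), HT lithium male 1 (-2.76), WT vehicle female 1 (-1.97), HT fluoxetine female 2 (-1.44), HT fluoxetine male 3 (-1.01) and HT fluoxetine female 4 (-0.975). Just outside it was WT vehicle female 4, at -0.889. The high group held WT vehicle male 3 (2.17), HT fluoxetine female 1 (1.92), HT vehicle male 1 (1.499), HT fluoxetine female 3 (1.29), WT vehicle female 3 (1.26), WT vehicle male 2 (1.23) and HT vehicle female 2 (1.23). Just outside it was WT vehicle male 1, at 1.14. Scores thus changed without a break across both limits, and the mean score differed by 3.602 (1.51 against -2.09).

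**Figure D1:**
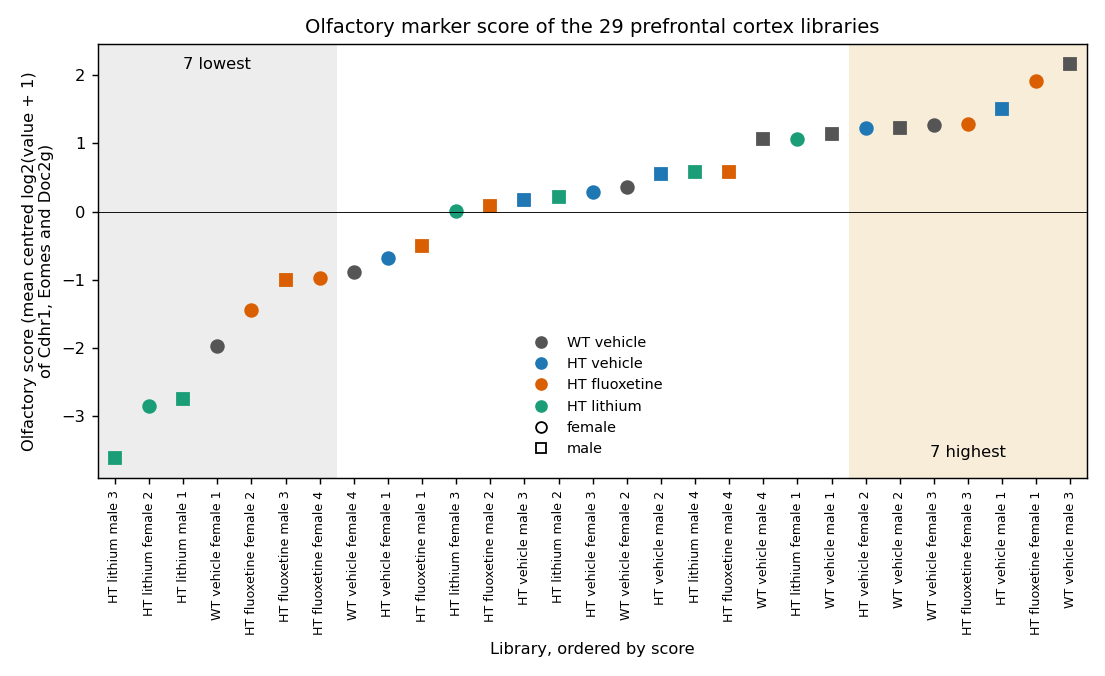
Olfactory score (mean centred log2(value + 1) of Cdhr1, Eomes and Doc2g) of each of the 29 libraries, ordered from lowest to highest. Colours give the condition and shapes the sex, and shading marks the 7 lowest and the 7 highest libraries. The 3 lowest libraries, between -3.61 and -2.76, are HT lithium, and scores lie close together on either side of both limits.

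Study conditions were spread unevenly over the groups. The high group held 3 WT vehicle, 2 HT vehicle and 2 HT fluoxetine libraries, and the low group 3 HT lithium, 3 HT fluoxetine and 1 WT vehicle library. Each group had 4 females and 3 males. Lithium treatment was found in the low group alone and HT vehicle in the high group alone, so treatment and score cannot be fully told apart. Fits with sex and condition as terms are given for the main counts and for several lists and genes. The score averaged -1.05 ± 1.94 (SD, n = 7) in HT lithium and 0.509 ± 0.784 (n = 6) in HT vehicle. That difference of -1.56 gave an exact permutation p of 0.108, two-sided, and 0.431 after adjustment over 4 comparisons. HT fluoxetine averaged -0.0081 ± 1.195 (n = 8), a difference from HT vehicle of -0.52 (exact permutation p = 0.371, adjusted 0.742). HT vehicle and WT vehicle, at 0.547 ± 1.34 (n = 8), differed by -0.038 (exact permutation p = 0.956, adjusted 0.956), and females and males by -0.19 (permutation p = 0.735, adjusted 0.956). Within HT lithium alone, scores reached from -3.61 to 1.07.

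Depth was 22.8 to 31.7 M reads (M, 1e6), with medians of 28.0 M in the low group and 29.1 M in the high group. Mitochondrially encoded transcripts took 5.35% to 6.17% of the value in the low group and 4.54% to 6.30% in the high group. The mean of striatal markers, centred log2 as for the score, reached from -0.637 to 1.92 (median -0.340) in the low group and from -0.707 to 0.923 (median -0.616) in the high group. Values over 1 higher than the median library were found in HT lithium female 2, WT vehicle female 1 and HT fluoxetine female 2 of the low group, in WT vehicle female 3 of the high group, and in 3 of the 15 libraries between. Over all 29 libraries the score had a Pearson r of -0.30 with striatal markers (permutation p = 0.105, Spearman rho -0.34, p = 0.0734). Without the 2 most extreme scores, r was -0.35. With myelin markers r was -0.24 (p = 0.203; rho -0.32, p = 0.0887), with reads -0.0091 (p = 0.963) and with the mitochondrial share -0.027 (p = 0.887). None of these 4 relations passed after adjustment, the lowest adjusted p being 0.405 for r and 0.177 for rho.

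Cdhr1 (ENSMUSG00000021803, chr14:37077857-37098347) was at 383, 709.99 and 1037 normalised counts as the lowest, median and highest values of the low group, and at 3618, 3776 and 6393 in the high group. Eomes (ENSMUSG00000032446, chr9:118478212-118486132) was at 3.38, 34.97 and 93.5 in the low group and at 583, 693 and 1401 in the high group. For Doc2g (ENSMUSG00000024871, chr19:4003313-4007005) the values were 149.9, 305 and 685 against 2582, 2821 and 4748. It shares exon positions with the gene model Gm49405. The low libraries were thus low in the 3 markers and not free of them.

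Genes that followed the score upward moved by far larger factors than genes that followed it downward. In limma's test with Benjamini-Hochberg adjustment, 1973 genes were higher in the high group (11.3% of those tested) and 1856 lower (10.6%; 21.9% in either direction), and nothing further is read from these shares, since expression itself ranked the libraries. Values of the 2 groups did not overlap for 776 genes that were higher (4.43%) and for 383 that were lower (2.19%). A difference of more than 1 on the log2 scale was found for 264 of the higher genes and for 8 of the lower ones. More than 2 was reached by 84 higher genes and by no lower one, the largest called decrease being -1.56. The median called difference was 0.32 upward and -0.20 downward. The 264 genes together took 0.132% to 0.183% of all value in the low libraries and 0.358% to 0.587% in the high ones, a separation that choosing them for higher values in these libraries fixes. With sex and condition as terms 1037 genes were higher and 775 lower. Without the 4 libraries high in striatal markers, 1360 were higher and 1068 lower.

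The 15 libraries between the extremes gave a reading of the same relation in samples that were in neither group. Across them, with the score as a number, 171 of 17489 genes increased with it (0.978%) and 16 decreased (0.0915%) in limma's test. Of the 171, 169 were also higher in the high group, 98.8% of the slope list and 8.57% of the genes higher in the high group. Of the 16, 13 were also lower, 81.2% and 0.700%, and none was called in opposite directions. Over all genes tested, 11.3% were higher and 10.6% lower in the high group. Among the genes higher by more than 1 in the high group, 245 could be tested for a slope, 239 had a positive slope and 107 were called, with a median slope of 0.44 log2 per unit of score. Of all 17489 genes, 8412 had a positive slope. The count of 16 ran from 5 without WT vehicle male 1 to 28 without HT fluoxetine male 4. It was 10 without HT vehicle female 1, and 9 without HT vehicle male 2 or without WT vehicle female 4.

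**Figure D2:**
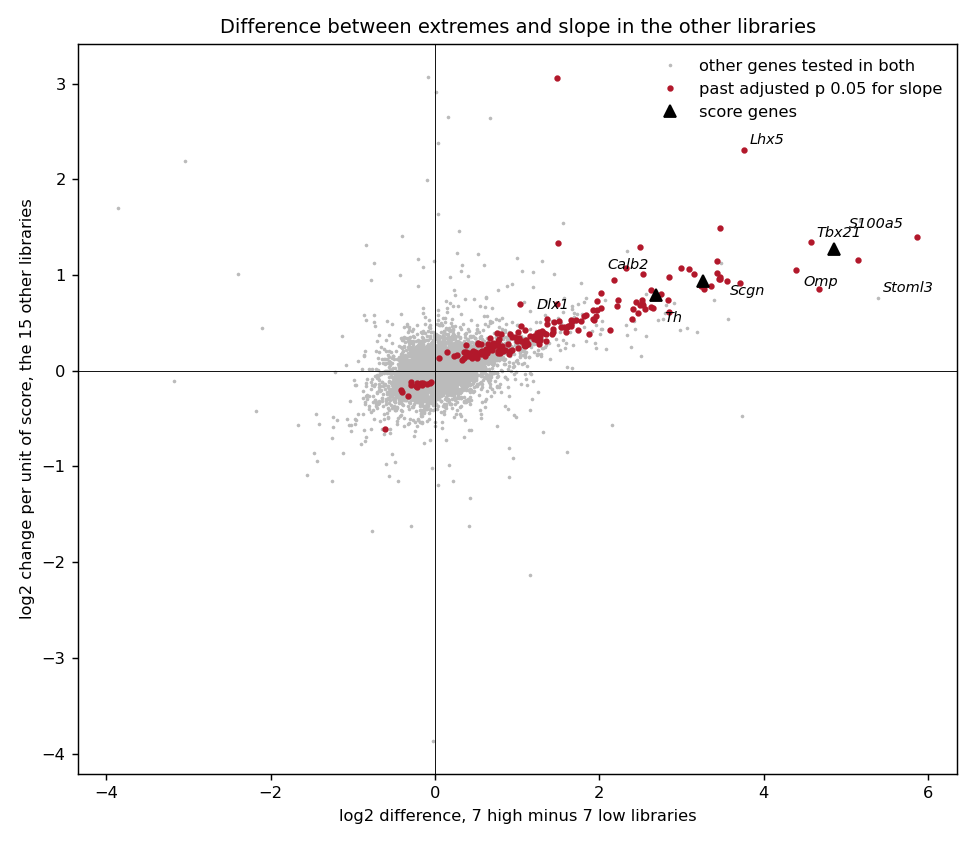
Each point is a gene tested in both fits, with its log2 difference between the 7 high and 7 low libraries on the horizontal axis and its log2 change per unit of score in the 15 other libraries on the vertical axis. Red points passed adjusted p 0.05 for slope, 171 upward and 16 downward, and triangles are the 3 score genes. Red points lie almost entirely in the upper right part, from small differences up to S100a5 at 5.87.

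Mitral and tufted cell genes other than the score genes were mostly higher. Of 14 tested, 10 were higher (71.4%) and 2 lower (14.3%), against 11.3% and 10.6% over all genes. These 2 all-gene shares also stand beside the list counts given below for the high and low groups. The median log2 difference was 0.996 against -0.0040 over all genes tested. In the 15 other libraries 6 members increased with the score (42.9%, against 0.978% of all genes tested for slope). In bulk tissue, a change in the number of cells of a type and a change in RNA per cell cannot be told apart. Tbx21, a T-box factor of bulb output neurons, was at 3.38, 8.18 and 34.0 (lowest, median, highest) in the low group, at 25.2, 103 and 299 in the 15 libraries between and at 202, 252 and 506 in the high group. Low and high values did not overlap, and the difference of 4.57 ± 0.373 (SE; adjusted p = 1.5e-07, limma) is on the log2(value + 1) scale, which understates changes of low genes. Its slope in the 15 other libraries was 1.34 ± 0.115 per unit of score. Nmb, the neuropeptide neuromedin B, was at 20.5 to 54.1 in the low group and 195 to 405 in the high group, a difference of 2.85 ± 0.224. It shares exon positions with Sec11a on the same strand. Lhx5, a LIM homeobox gene, was at 1.08 or less in all low libraries and at 12.5 to 38.6 in the high ones. It was tested only through the high group, so it had to differ and adds no support to the count. Reln, the secreted glycoprotein reelin, was at 2277 to 2819 against 3872 to 5084. The 2 lower members were Kcng1, a potassium channel subunit (-0.38 ± 0.097), and Tbr1.

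Of 15 sensory axon markers tested, 20% were called higher and 13.3% lower, against 11.3% and 10.6% over all genes. S100a5, a calcium-binding protein of olfactory sensory neurons, was at 0, 4.95 and 9.01 in the low group and at 102, 218 and 415 in the high group, without overlap. Omp, the olfactory marker protein, was at 6.80, 12.3 and 32.6 against 114, 379.7 and 515. Stoml3, a stomatin family protein, was at 4.95 or less against 41.2 to 148. These were the 3 members called higher of 15 tested. S100a5 and Stoml3 were below the filter value of 10 in all low libraries and were tested only through the high group, so they had to differ, and the count is no support. Lower were 2, among them Gnal, the G protein alpha subunit of olfactory transduction that striatal neurons also use (-0.42 ± 0.087). Cnga2, a subunit of the olfactory cyclic nucleotide channel, was at 6.80 to 14.7 in the low group and 4.54 to 19.1 in the high group and was not called. The list median was -0.0029, and its sign changed under 16 of the other settings. For Omp the slope in the 15 other libraries, 1.06 ± 0.254 (adjusted p = 0.049), missed the threshold under 20 of 31 other settings. Leaving out any of those 15 libraries but HT lithium female 3 or WT vehicle male 1 was enough, with adjusted p from 0.0523 to 0.201.

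**Figure D3:**
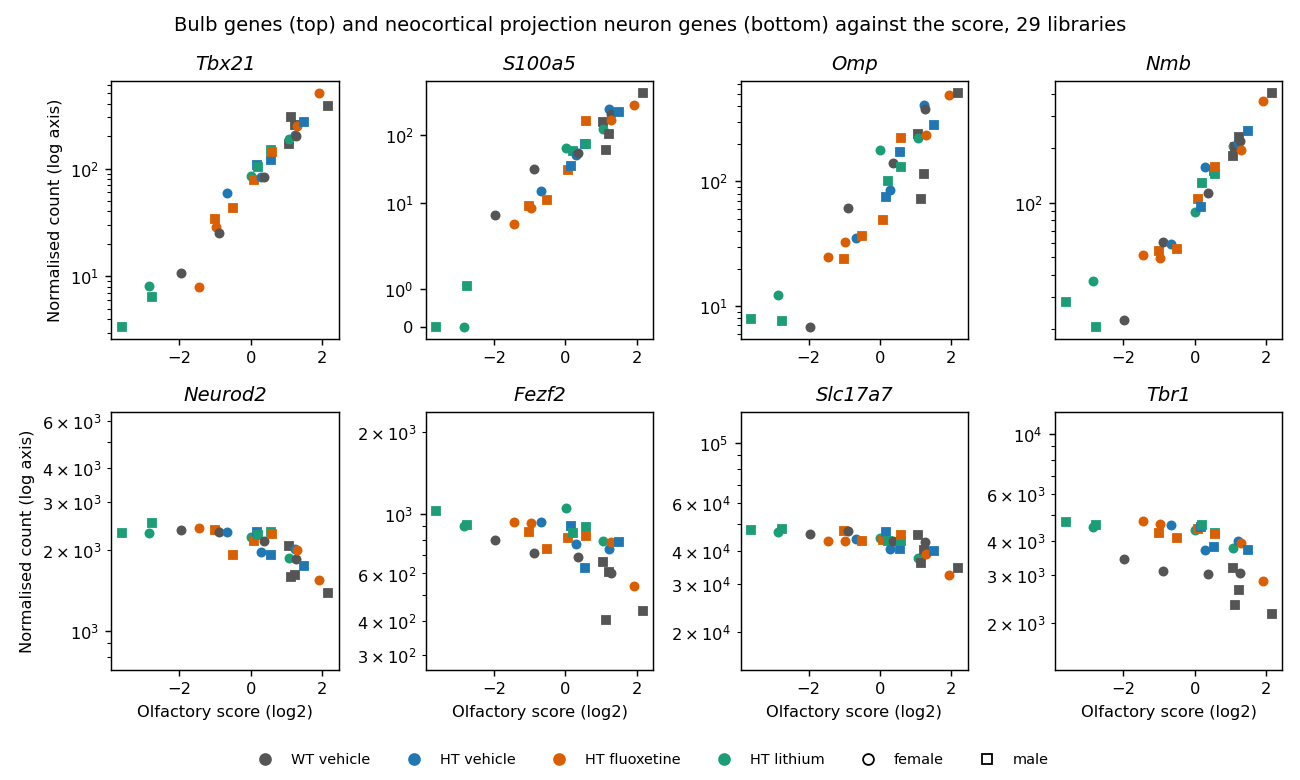
Normalised counts of 8 genes in each of the 29 libraries on log axes (S100a5 on a symmetric log axis that shows 0), against the olfactory score. Top row, genes of mitral and tufted cells (Tbx21, Nmb) and of sensory neurons (S100a5, Omp), all higher at the highest than at the lowest scores. S100a5 and Omp are scattered between: Omp was at 178 in HT lithium female 3 (score 0.0045) and at 72.1 in WT vehicle male 1 (1.14). Bottom row, genes of neocortical projection neurons, which lie near level up to scores around 0 and lower in libraries above 1. WT libraries are at the lower edge for Tbr1, and WT vehicle male 1 and WT vehicle male 3 are lowest for Fezf2.

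Genes of granule and periglomerular neurons formed the group with the largest share of higher members. Of 29 tested, 26 were higher and 0 lower by limma, with a median of 1.27. In the 15 other libraries 19 increased with the score (65.5%, against 0.978% of all genes tested for slope). Calb1, Tpbg and Eya1 were not called. Calb1, the calcium-binding protein calbindin, was lower at an unadjusted p under 0.05 (-0.20 ± 0.073), and edgeR and DESeq2 each called 1 member lower. Calb2 (calretinin, ENSMUSG00000003657, chr8:110137502-110168210), a calcium-binding protein of granule and periglomerular cells, had the smallest p of all genes. It was at 411, 664 and 907 in the low group, 1092, 1806 and 3350.1 between, and 3472, 3834 and 6020.1 in the high group. The difference was 2.75 ± 0.165 (adjusted p = 3.8e-08, limma). Its slope of 0.80 ± 0.045 in the 15 other libraries, multiplied by the difference in mean score, gives 2.89.

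Th (tyrosine hydroxylase, ENSMUSG00000000214, chr7:142892752-142931128), the rate-limiting enzyme of dopamine synthesis and a marker of dopaminergic periglomerular cells, was at 74.4, 212 and 298 in the low group and at 934, 1103 and 1662 in the high group. The difference was 2.83 ± 0.261 (adjusted p = 5.5e-07, limma). Of 13 dopamine genes tested, the transporters Slc18a2 (1.84 ± 0.212) and Slc6a3 (1.68 ± 0.201) were also higher. Ddc, which turns L-DOPA into dopamine, stood at 84.2 to 156 and 113 to 168 and was not called, and Spr, an enzyme of cofactor synthesis, was lower (-0.26 ± 0.065). Scgn (secretagogin, a calcium-binding protein, chosen after its values were seen) was at 10.1, 30.7 and 112 against 271, 323 and 569. Trh, the precursor of thyrotropin-releasing hormone, was at 44.0 to 125 against 336 to 763, and Vipr2, a VIP receptor, at 31.3 to 155 against 382 to 708.

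Transcription factors of LGE-derived neurons were higher for 14 of 23 tested, with 1 lower (Foxp1) and a median of 0.78. In the 15 other libraries 11 increased with the score (47.8%, against 0.978% of all genes tested for slope). This list shares members with the granule and periglomerular list. Dlx1, a homeobox factor of GABAergic neurons, was at 878, 1069.8 and 1318 in the low group and at 2732, 3161 and 4907 in the high group (1.72 ± 0.120). Its slope of 0.53 ± 0.032 was among the 3 with the smallest p in the 15 other libraries. Dlx2, Sp9 and Tshz1, further factors of this lineage, differed by 1.45 ± 0.10004, 1.93 ± 0.132 and 1.66 ± 0.111, and Meis2 by 0.78 ± 0.073. Dlx1 shares exon positions with Dlx1as and Sp9 with Cir1, each on the opposite strand. The strand setting of the counting is not given in the sources used here, so reads of such pairs may not be separable.

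Interneuron genes moved in both directions. Of 41 cortical interneuron genes, 18 were higher (43.9%) and 9 lower (22%), against 11.3% and 10.6% over all genes, with a median of 0.075. Its members are partly those of other lists. The Dlx genes are also in the LGE list, and Sp8 in the granule and periglomerular list. Lhx6, Sox6, Satb1 and Sp8 are also in the list of MGE and CGE factors. The higher members included the Dlx genes, Calb2, Sp8 and Gad1, which makes GABA and was at 7526 to 9443 against 14693 to 22099.7 (1.01 ± 0.080). Gad2, the other GABA-synthesising enzyme, differed by 0.42 ± 0.070, and Slc32a1, the vesicular GABA transporter, by 0.57 ± 0.068. Lower were Lhx6, Sst, Pvalb, Cox6a2, Sox6, Prox1, Satb1, Cck and Npas1. Lhx6, the transcription factor of MGE-derived interneurons, was at 425, 478 and 532 in the low group and at 249.5, 346 and 415 in the high group, without overlap (-0.53 ± 0.1002, adjusted p = 0.0011, limma). Pvalb, the calcium-binding protein parvalbumin, was at 515 to 549 against 268 to 477, also without overlap (-0.45 ± 0.092), and Sst, the peptide somatostatin, at 3682 to 4799 against 2199 to 3822, which overlap (-0.49 ± 0.105). Both were chosen after their values were seen.

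Vip and Npy, peptides of other cortical interneurons and likewise chosen after their values were seen, were not called. Vip was at 810.5, 961 and 1050.3 in the low group and 819.98, 937 and 1047 in the high group, and Npy at 1804 to 2368 against 1627 to 2067. Of 13 transcription factors of MGE and CGE interneurons, 3 were higher, Sp8 and Nr2f2 among them, and 6 lower. With sex and condition as terms the 6 became 4, and without the libraries high in striatal markers 2. Over all genes the lower count went from 1856 to 775 and to 1068 under these settings. In the 15 other libraries 8 of the 41 cortical interneuron genes increased with the score (19.5%, against 0.978% of all genes tested for slope). Of the 13 factors 2 increased (15.4%). Decreasing past the threshold were 0 of the 41 genes by limma or edgeR and 2 by DESeq2, with 6 at an unadjusted p under 0.05 in limma. Sst had a slope of -0.28 ± 0.074 (adjusted p = 0.083), which passed without WT vehicle male 4 (adjusted p = 0.042) or without HT fluoxetine male 4 (0.033).

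**Figure D4:**
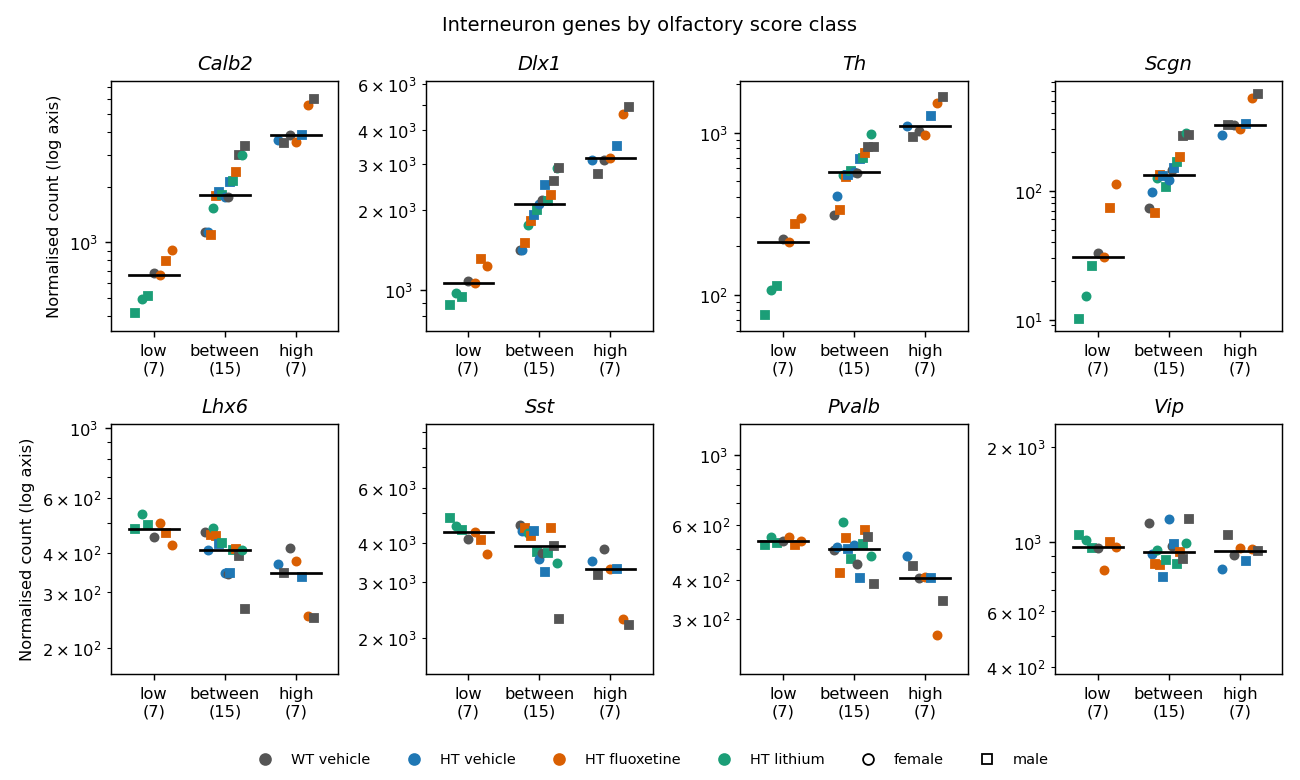
Normalised counts on log axes of 8 interneuron genes in the 7 low, 15 between and 7 high libraries, each point a library and each bar the group median, with libraries ordered by score within a group. Calb2, Dlx1, Th and Scgn climb across the 3 groups without overlap of low and high. Lhx6, Sst and Pvalb are lower in the high group, with HT fluoxetine female 1 and WT vehicle male 3 at or near the bottom, and Vip is level.

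Genes of migrating neuroblasts gave 10 higher and 5 lower of 19. Dcx (doublecortin, a microtubule protein of migrating neurons, chosen after its values were seen) was at 1584, 1915 and 2332 in the low group and 3718, 4642 and 6479.7 in the high group (1.30 ± 0.118). Igfbpl1 (1.36 ± 0.150) and Sox4 (0.92 ± 0.095), both expressed in immature neurons, were higher too. The dividing-cell genes Mki67 (-0.68 ± 0.201) and Top2a (-0.72 ± 0.245) were lower, at 44.1 to 107 against 26.5 to 55.8 for Mki67.

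Olfactory ensheathing glia wrap the sensory axons, and 7 of their 13 tested genes were higher. None was lower by limma (0 also at an unadjusted p under 0.05, by edgeR and by DESeq2). Prss56, a serine protease, was at 5.11 to 14.7 against 43.3 to 66.4, and Fabp7, a fatty acid binding protein of glia, at 722 to 1314 against 2371 to 3815, neither with overlap. The general glial genes of this list, S100b (0.059 ± 0.039) and Sox10 (0.018 ± 0.074), were not called. Npy, also a member of this list, was not called either, and its range, given above, was lower in the high group.

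The 10 higher genes with the smallest p outside the score were Calb2, Kank3, Tshz1, Pcbp3, Fam196b, Sp9, Dlx2, Aqp1, Dlx1 and Gcnt1. All had adjusted p between 3.8e-08 and 4.8e-08 in limma's test, and in each the groups did not overlap. Choosing them by p in these same libraries favours such a separation, which 4.43% of all genes tested showed upward, so it is no support. Pcbp3, an RNA-binding protein, was at 1469 to 1934 against 3197 to 4987, and Gcnt1, a glycosyltransferase, at 65.4 to 124 against 305 to 524. Aqp1, a water channel that choroid plexus also makes, was at 27.7, 32.7 and 55.7 against 146, 241 and 307. Ttr, the defining transcript of choroid plexus, was at 0 to 45.3 in the low group and 0 to 34.96 in the high group. Kank3, which shares exon positions with Rps28 on the opposite strand, differed by 0.91 ± 0.060, and Fam196b by 1.74 ± 0.119. Ptpro, a receptor tyrosine phosphatase, was the third gene with the smallest slope p beside Calb2 and Dlx1 (0.46 ± 0.029 per unit of score).

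Below 10 in all low libraries and at 10 or more in all high ones were 16 genes, of which 11 had an assigned name. They were S100a5, Stoml3, Foxd3, Lhx5, Hephl1, Mgam, Gal, Vmn1r206, Duox2, Glra4 and Kcnn4, all chosen by their values. Gal, the neuropeptide galanin, was at 0, 4.32 and 9.01 against 20.4, 31.7 and 59.4.

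Neocortical projection neuron genes were lower or not called. Of 18 tested, 13 were lower and 0 higher by limma (0 also at an unadjusted p under 0.05, by edgeR and by DESeq2), with a median of -0.25. With sex and condition as terms 8 were lower, beside 775 of the 17500 genes tested. Neurod2 (ENSMUSG00000038255, chr11:98325415-98329648), a bHLH factor of cortical excitatory neurons, was at 2308, 2366 and 2505 in the low group and at 1384, 1733 and 2017 in the high group, without overlap (-0.47 ± 0.067, adjusted p = 8e-05, limma). Slc17a7, a vesicular glutamate transporter of cortical neurons, was at 43340.5 to 47979.7 against 32387 to 43209 (-0.26 ± 0.056), and was thus abundant in all 14 libraries. Slc17a7 was chosen after its values were seen. In the 15 other libraries 16 of 18 had a negative slope, where 8412 of all 17489 genes had a positive one. By limma, edgeR or DESeq2 0 of the 18 passed the threshold, with 3 at an unadjusted p under 0.05 in limma.

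Tbr1 (ENSMUSG00000035033, chr2:61802930-61814114) was at 3432, 4606 and 4766 in the low group and at 2151, 3043 and 4015 in the high group, which overlap. It was lower by -0.49 ± 0.118 (adjusted p = 0.006, limma). By condition, it was at 2151 to 3432 in the 8 WT libraries, 3728 to 4593 in HT vehicle, 3777 to 4738 in HT lithium and 2858 to 4766 in HT fluoxetine. HT fluoxetine female 1, a library of the high group, was the one at 2858, inside the WT range, and WT made up 3 of the 7 high and 1 of the 7 low libraries. With sex and condition as terms the difference was -0.42 (adjusted p = 0.013), and in the 15 other libraries the slope was -0.17 ± 0.101 (adjusted p = 0.541).

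The 10 lower genes with the smallest p were Lypd6, Plk2, Hpca, Neurod2, Gng2, Fam135b, Alcam, Rasgef1a, Hspa12a and Ak5. Their log2 differences lay between -0.47 and -0.23, and in each the groups did not overlap. This separation too is favoured by the choice, and 2.19% of all genes tested showed it downward. Hpca, the calcium sensor hippocalcin, was at 13215 to 14779 against 9910.1 to 12300.2, and Plk2, an activity-regulated kinase, at 4538 to 5065 against 3823 to 4264. Hspa12a and Ak5, like Gnal and Tmem94, share exon positions with genes on the opposite strand, and Sh2d5 with Kif17 on its own strand. Decreasing with the score in the 15 other libraries with the smallest p were Sh2d5, Arhgap33 and Tmem94, with slopes of -0.20 ± 0.037, -0.13 ± 0.025 and -0.15 ± 0.029. With sex and condition as terms Arhgap33 (adjusted p = 0.0764, limma) and Tmem94 (0.142) were not called. Arhgap33 also missed the threshold with quantile normalization (0.0755) and without WT vehicle female 4 (0.087). Tmem94 missed it without the libraries high in striatal markers (0.0596) and without HT vehicle female 1 (0.0548).

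Layer markers gave more lower than higher members, and their higher shares lay near that of all genes tested. Upper layer genes were lower for 5 and higher for 2 of 18, layer 5 genes for 7 and 2 of 16, and layer 6 and 6b genes for 7 and 2 of 17. Higher shares were 11.1%, 12.5% and 11.8%, against 11.3% over all genes, and lower shares 27.8%, 43.8% and 41.2%, against 10.6%. With sex and condition as terms the lower counts were 2, 2 and 8, beside 775 of the 17500 genes tested. Fezf2, the layer 5 selector factor, was at 801 to 1019.9 against 435 to 788 (-0.52 ± 0.107). By condition, Fezf2 was at 402 to 801 in WT vehicle, 631 to 927 in HT vehicle, 791 to 1047 in HT lithium and 539 to 932 in HT fluoxetine. Its difference thus cannot be fully told apart from genotype and treatment. Syt6, a synaptotagmin listed for layer 6, went the other way, at 605, 894 and 1084 against 1649.8, 2071 and 2821 (1.43 ± 0.133, slope 0.38 ± 0.062). Mdga1, an adhesion protein listed for upper layers, was at 925 to 1188 against 1664 to 3015.

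Striatal markers were lower for 7 of 23 and higher for 0 by limma (0 also at an unadjusted p under 0.05, by edgeR and by DESeq2), with a median of -0.64. Drd1, the dopamine D1 receptor, was at 170.2, 215 and 985 in the low group and 72.3, 136 and 402 in the high group, and its call was lost under 10 of 32 other settings, among them leaving out WT vehicle male 3, HT vehicle male 1, HT lithium female 2, HT fluoxetine female 1, HT fluoxetine female 2 or WT vehicle female 1 (adjusted p from 0.05004 to 0.0752). Summed over the list, values ran from 20301 to 51426 in the low group and from 17395 to 31257 in the high group. Those ranges hold 3 striatal-rich libraries in the low group against 1 in the high group. Without them 5 of the list were lower and 3 higher, beside 1068 lower and 1360 higher over all genes. With the striatal marker mean as a term over all genes, 1674 were higher and 1544 lower in the high group, and 15 of the neocortical projection neuron genes were lower.

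**Figure D5:**
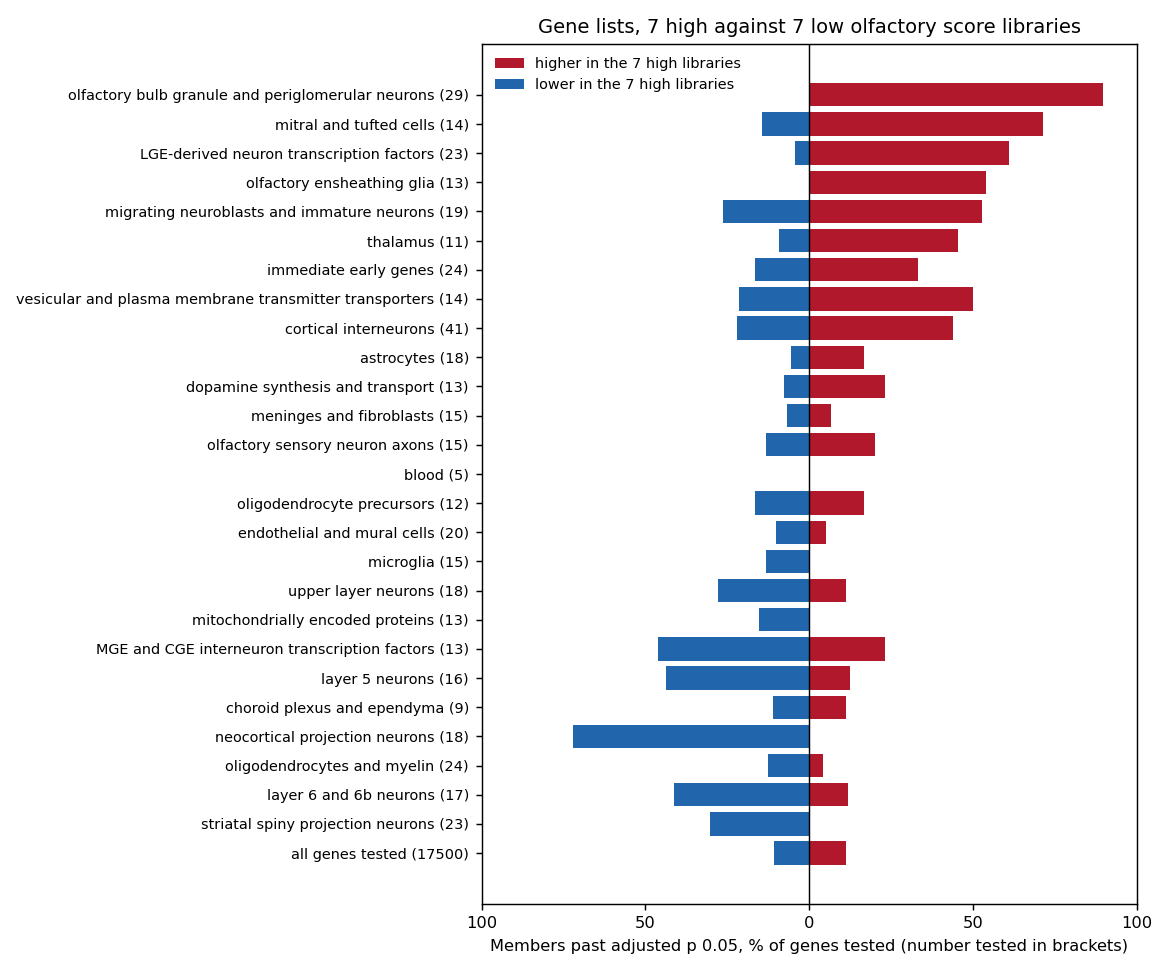
Share of each list's tested genes that were higher (red, right) or lower (blue, left) in the 7 high than in the 7 low libraries at adjusted p 0.05, with the number tested in brackets and all 17500 genes at the bottom. Lists are ordered by median log2 difference. Granule and periglomerular genes stand at the top with 26 of 29 higher, and neocortical projection neuron genes hold the largest share of lower members, 13 of 18.

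Counts in glial and vascular lists stand against 11.3% higher and 10.6% lower over all genes and are given as a description. Astrocyte genes were higher for 3 and lower for 1 of 18. Gfap, the intermediate filament of astrocytes, was at 2617, 3199 and 3418 against 4030.01, 4219 and 5268, without overlap (0.52 ± 0.069), while the glutamate transporter Slc1a2 was lower (-0.25 ± 0.046). In the 15 other libraries Gfap had a slope of 0.064 ± 0.059 and was not called. Myelin genes were lower for 3 and higher for 1 of 24, microglial genes lower for 2 of 15, endothelial and mural genes higher for 1 and lower for 2 of 20, and blood genes for 0 of 5 in either direction (0 also at an unadjusted p under 0.05, by edgeR and by DESeq2). Hbb-bs, an adult beta globin, was at 1029 to 2009.8 against 1158 to 2667. Of 15 genes of meninges and fibroblasts 1 was higher and 1 lower. The higher one, Islr, was at 570.2 to 830.2 against 1086 to 1449, and shares exon positions with Islr2. Of the other lists, transmitter transporters were higher for 7 and lower for 3 of 14, thalamic genes for 5 and 1 of 11, oligodendrocyte precursor genes for 2 and 2 of 12 and choroid plexus genes for 1 and 1 of 9. Mitochondrially encoded genes were lower for 2 of 13. Several of these calls rested on the setting: those of Aqp4 (astrocytes, higher), Vtn (mural cells, higher), Cdh5 (endothelium, lower), Mal (myelin, lower), C1ql1 (oligodendrocyte precursors, higher) and mt-Co3 (mitochondrial, lower) were lost under 15 to 21 of 32 other settings. Leaving out any of 8 to 12 of the 14 libraries was enough for each, and each of the 14 ended at least 1 of these calls. Slc6a11, a GABA transporter of astrocytes, had the smallest p of the transporters, at 4419 to 5226 against 7421 to 10897 (0.90 ± 0.072).

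Immediate early genes, which neurons switch on with activity, were higher for 8 and lower for 4 of 24. Fosb was at 618, 707 and 968 against 1090.1, 1244 and 1627, without overlap (0.84 ± 0.102), and Fos at 1176 to 1609 against 1580.3 to 2433, with overlap (0.51 ± 0.102). Arc (0.16 ± 0.102) and Egr1 (0.033 ± 0.053), other activity genes of cortex, were not called. With sex and condition as terms 3 of the list were higher, beside 1037 of the 17500 genes tested. In the 15 other libraries 1 increased, Npas4 (4.17% of the list, against 0.978% of all genes tested for slope).

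Across the study's conditions, Calb2 and Th varied more within a condition than between the medians. Calb2 reached from 411 to 2970 in HT lithium (median 1539), from 664 to 5571 in HT fluoxetine (1443), from 1136 to 3854 in HT vehicle (1999) and from 683 to 6020 in WT vehicle (3164). Th reached from 74.4 to 977 in HT lithium, from 212 to 1530 in HT fluoxetine, from 405 to 1264 in HT vehicle and from 219.5 to 1662 in WT vehicle. The ranges of all 4 conditions overlap for both genes.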

How the data were processed

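The 29 samples were prefrontal cortex, sequenced as stranded poly(A) libraries per the labels' protocols, all with the same batch label. The authors deposited 1 table of normalised signal, which the values show to be read counts divided by 1 size factor per library: 100% were whole multiples of a step (tolerance 0.0001), and reads were recovered from it. The submitters' processing notes name Salmon 0.11.2, R 3.6.0, DESeq2 1.19.11 and GRCm38 and give them no role. Annotation release and strand setting are not given in the sources used here. Names were found for 18227 of 18240 gene identifiers in a GRCm38 annotation.

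Members and lists were chosen with earlier results of these data known. Main tests used limma 3.58.1 (R 4.3.3) on log2(value + 1) with an intensity trend. They were two-sided. Genes reaching 10 in 3 or more libraries of the fit were tested, and p-values were adjusted over all of them by Benjamini-Hochberg, with a threshold of 0.05. Errors of differences and slopes are standard errors. Score differences were tested by permutation, and scripts were tested on simulated data. Text names come from a rule: the 10 genes per direction (3 for slopes) of smallest p with a mean of at least 50, up to 4 genes of each list, the score genes and Tbr1. Further list members and genes said to be chosen by value lie outside it, and a few genes are not reported here. Read depth sets the precision of low genes.

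Alternatives changed the pseudocount, filter, scaling, moderation or threshold, used edgeR 4.0.16 or DESeq2 1.42.0 on recovered reads, added sex and condition, striatal markers or a replicate block, fitted all libraries as a slope, or left libraries out in turn. Fits without the libraries high in striatal markers, and with myelin markers as a term, were chosen after seeing the data.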

Additional observations from a re-analysis of the deposited data

Results flagged for a closer look

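Within groups of 4 to 10 libraries, 241 sets of values were examined for a lowest or highest library far from its nearest neighbour, and 14 were found. Chance gives about 1 in 20. WT vehicle male 3 had the highest olfactory score of its study group, 2.17, and the next was 1.23. Among the 7 low libraries, HT lithium male 3 was lowest for Fam196b (78.9 normalised counts) and for Gfap (2617), and HT lithium female 2 was lowest for the glutamate transporter Slc1a2 (65876). WT vehicle female 1 was lowest for Tbr1 (3432), being the only WT library there, and highest for the mural cell gene Vtn (2167). HT fluoxetine female 2 was lowest for Nr4a1 (2975) and Vip (810.5). HT fluoxetine male 3 was highest for the water channel gene Aqp4 (3757), and HT fluoxetine female 4 for Fosl2 (2385).

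Among the 7 high libraries, WT vehicle male 2 was highest for the 3 globin genes Hba-a2 (2810.2), Hbb-bs (2667) and Hbb-bt (461). WT vehicle male 3 was lowest for Npy (1627).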

How the results depend on the processing

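Against 1973 genes higher and 1856 lower in the high group, sex and condition as terms gave 1037 and 775. The lower count was 1068 without the 4 libraries high in striatal markers and 1084 for a slope over all 29 libraries; other settings gave 1360 to 2512 higher and 1492 to 2533 lower, and leaving out 1 library 1555 to 2000 and 1401 to 1949. Against 171 genes increasing and 16 decreasing with the score in the 15 other libraries, the decreasing count was 9 with quantile normalization, 9 with no intensity trend, 80 by DESeq2, 26 with the striatal marker mean as a term, 46 at a threshold of 0.1 and 9 without libraries high in striatal markers. Leaving out 1 library gave 129 to 192 increasing and 5 to 28 decreasing. The cause was not tested.

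Same-numbered libraries did not pair (94 pairs, r from -0.264 to 0.311, median -0.014, 14 over 0.1), and the replicate block gave 1881 and 1682 genes, and 152 and 11 for slopes. With the block the score difference was -1.83 for HT lithium minus HT vehicle (adjusted p = 0.625, permutation), -0.454 for HT fluoxetine minus HT vehicle, -0.191 for HT vehicle minus WT vehicle and -0.156 for females minus males (each adjusted p = 0.805). Leaving out 1 library, these ran from -1.91 to -1.13, -0.792 to -0.312, -0.397 to 0.199 and -0.455 to 0.0208, with adjusted p from 0.225 upward. The numbers are those of the titles; the table names the HT vehicle females 2 to 4 where the titles give 1 to 3, so the block may misplace them. Of 26 lists, 5 changed the sign of their median difference under at least 1 setting: sensory axons under 16, blood 11, choroid plexus 7, meninges 6 and oligodendrocyte precursors 2. For the slope 15 lists did. Another scaling alone did so for meninges (quantile) and blood (edgeR, DESeq2) in the difference, and for sensory axons, upper layers and astrocytes (quantile) and choroid plexus (edgeR, DESeq2) in the slope. Depth limits genes near 0 in the low group, whose fold changes depend on the pseudocount.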
